A study of Homo sapiens with 12 samples.

Results

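The genes described here encode the nuclear subunits of the oxidative phosphorylation machinery of mitochondria. They were chosen by name, from symbols that begin NDUFA, NDUFB, NDUFC, NDUFS or NDUFV (assembly factors named NDUFAF left aside), UQCR, ATP5, COX6, COX7 or COX8, together with SDHA to SDHD, CYC1, COX4I1, COX5A and COX5B. Only probe sets assigned to a single symbol were used, and each gene was represented by its probe set with the highest mean over the 12 arrays. This gave 69 of the 11963 genes measured: 29 of complex I, 3 of complex II, 7 of complex III, 13 of complex IV and 17 of complex V. Of these, 67 code for protein, while ATP5MC2P1 is a pseudogene and NDUFB2-AS1 is an antisense long non-coding RNA. No filter on low values was applied, so all 69 were tested.

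Oxidative phosphorylation passes electrons from NADH (complex I) and succinate (complex II) through complex III to oxygen at complex IV, and the proton gradient that complexes I, III and IV build drives ATP synthesis by complex V. The complexes I, III, IV and V combine subunits made from nuclear genes with subunits made from the mitochondrial genome, while complex II is encoded wholly in the nucleus. Nuclear subunit genes are known targets of the transcription factors NRF1, GABP, YY1 and ESRRA and of their coactivator PGC-1alpha.

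RNA was measured on Affymetrix HG-U133A_2 arrays in MDA-MB-231, a human triple-negative breast cancer cell line, after 24 h in 1 of 4 conditions with 3 biological replicates each. Cells received 5 uM SAHA plus 2.5 mM pargyline, 5 uM SAHA alone, 2.5 mM pargyline alone, or the vehicle DMSO. SAHA (vorinostat) inhibits zinc-dependent histone deacetylases, and pargyline is an irreversible inhibitor of monoamine oxidase, a flavin enzyme of the outer mitochondrial membrane, that has also been used against the histone demethylase LSD1. All 4 conditions are of 1 line at 1 time, and the p-values measure the spread between replicates of that line.

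Values are log2 intensities after RMA, the authors' own normalization. Array medians lay between 5.15 and 5.38 and replicate arrays correlated at 0.998 to 0.999. The medians averaged 5.33 with both drugs, 5.28 with SAHA, 5.30 with pargyline and 5.17 with DMSO. Every drug-treated array had a higher median than every DMSO array. Centring arrays on their medians, as done below, removes this difference. The markers of the line were bright (the lowest reading of VIM, CD44, EGFR, CAV1 and AXL was 10.92), ESR1, PGR and CDH1 read at most 3.22, and the leukocyte genes PTPRC, CD3D and CD14 read at most 2.61. The endothelial genes PECAM1 and VWF read at most 3.65 and 1.84, and the fibroblast gene DCN at most 3.31. COL1A1, also listed for fibroblasts, read 6.01 to 6.39, above the array medians. ERBB2, EPCAM and GATA3, which were listed as low in this line, reached 8.40, 8.59 and 9.56, and were lowest in the SAHA-treated groups: ERBB2 averaged 5.06 with both drugs, 5.19 with SAHA, 8.21 with pargyline and 8.28 with DMSO. The difference between the 3' and 5' probe sets of ACTB averaged 0.89 ± 0.05 with both drugs, 0.84 ± 0.07 with SAHA, 0.80 ± 0.17 with pargyline and 0.79 ± 0.03 with DMSO (log2, SD, n = 3 each), and the part of RNA quality in the results below was not tested. Fewer cells and less RNA per cell cannot be told apart, and levels of different probe sets are not compared. A gene passed when limma gave an adjusted p under 0.05, with Benjamini-Hochberg adjustment over all 11963 genes. "Rose" and "fell" below are used only of genes that passed. Members named for large changes against DMSO were taken from those that passed without overlap between the groups, so lack of overlap adds no support.

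The subunits were strongly detected. Of the 69 members, 65 read above the median level of all genes (7.06, log2), and the median of their mean levels was 12.74. The 4 below it were COX6A2, COX7A1, NDUFB2-AS1 and ATP5MC2P1. COX6A2 and COX7A1 encode the heart and skeletal muscle isoforms of complex IV subunits: COX6A2 read 1.96 to 2.07 and COX7A1 1.73 to 1.83 over the 12 arrays, both under the arrays' lower quartile of 2.20 to 2.26, and neither passed in any comparison. Their widely expressed counterparts COX6A1 and COX7A2 were both well above it. For NDUFB2-AS1, whose gene lies antisense to NDUFB2, levels averaged 2.19 to 2.28 in the 4 groups. No probe set of the mitochondrially encoded subunits was among the genes measured (0 of 13 listed), so the text covers the nuclear side alone.

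On the deposited scale, SAHA gave both rises and falls in complexes I, III and V, and rises alone in complexes II and IV. Against DMSO, 25 of 69 members rose and 19 fell, where 23.0% of all genes rose and 23.1% fell. The share that passed either way was 63.8% of members, 46.2% of all genes and 73.3% of the genes at or above the median level. The changes were small: on the probe sets used, no member reached 2-fold, which 18.1% of all genes did. A change of 1.41-fold (0.5 on the log2 scale) was reached by 9 of the rises and 8 of the falls (13.0% and 11.6% of members, against 17.4% and 16.8% of all genes). The median change over members was 0.06 against 0.00 for all genes (log2). When each array was instead centred on its own median, the median over all genes moved by -0.10 and that of the members became -0.05, with 18 members rising and 24 falling. By the same centring the calls over all genes split 36.9% higher to 63.1% lower, against 49.9% to 50.1% on the deposited scale.

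**Figure D1:**
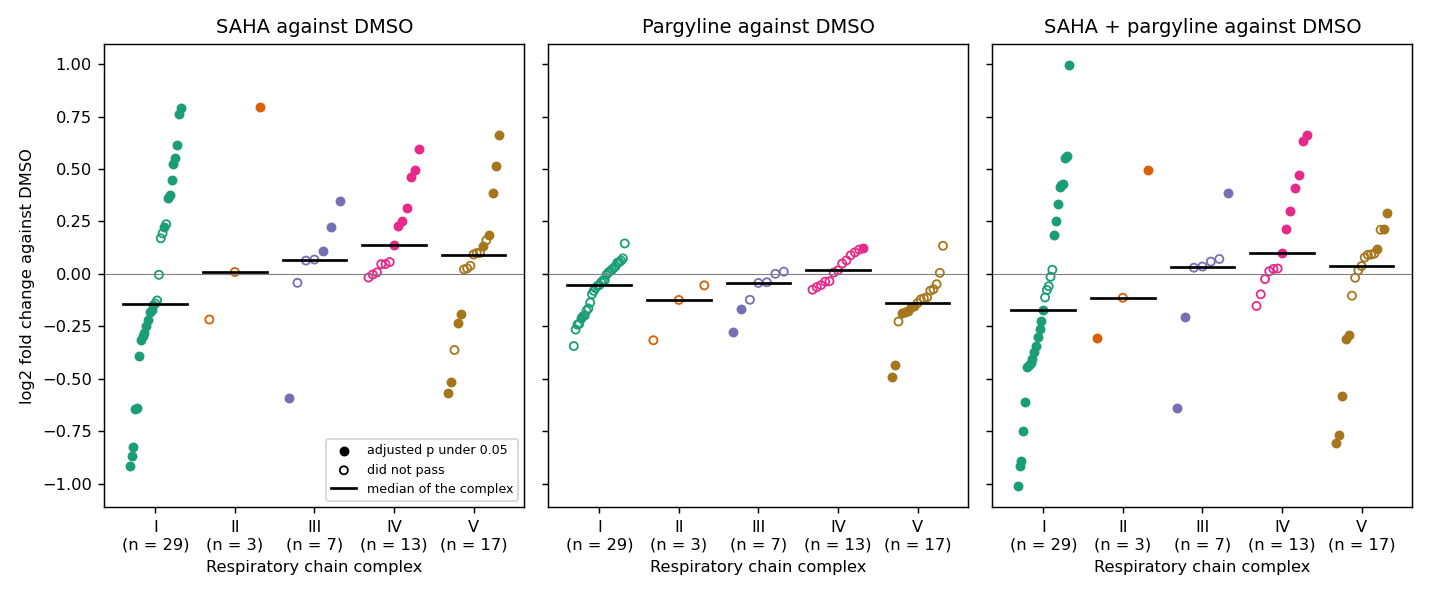
Log2 change of each of the 69 members, grouped by complex, for SAHA plus pargyline, SAHA and pargyline against DMSO. Filled points passed at an adjusted p under 0.05 and bars mark the median of the complex: with SAHA, complex I had 9 rises and 14 falls and complex IV 7 rises and no fall.

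Complex I, the NADH dehydrogenase at which most electrons enter, held the largest falls. With SAHA, 14 of its 29 members fell and 9 rose (median change -0.14). NDUFC1, an accessory subunit of the membrane arm, read 11.75, 11.69 and 11.74 in SAHA cells, against 12.63, 12.69 and 12.61 in DMSO cells. It was lower in every SAHA array, with a change of -0.92 ± 0.03 (log2, SE; 0.529-fold; limma adjusted p = 1.63e-08). NDUFB2, another membrane-arm accessory subunit, read 11.20, 11.13 and 10.94 in SAHA cells, against 11.96, 12.04 and 11.88 in DMSO cells, a change of -0.87 ± 0.07 (limma adjusted p = 5.70e-06).

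NDUFS3 is one of the conserved core subunits of the arm that reaches into the matrix. It read 11.02, 10.87 and 10.79 in SAHA cells, against 11.91, 11.70 and 11.56 in DMSO cells, and fell by 0.83 ± 0.10 on the log2 scale (limma adjusted p = 5.86e-05). NDUFA9, an accessory subunit near the quinone site, read 11.79, 11.57 and 11.51 in SAHA cells, against 12.34, 12.29 and 12.17 in DMSO cells, a change of -0.65 ± 0.09. NDUFS6, which binds zinc and is needed late in assembly, averaged 12.12 ± 0.12 in SAHA cells, against 12.76 ± 0.11 in DMSO cells (SD, n = 3 each), a change of -0.64 ± 0.07. In all 3 genes the SAHA arrays lay below every DMSO array. The other falls of complex I, from NDUFA13 (-0.39) to NDUFB4 (-0.15), were smaller.

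The rises in complex I included subunits that carry out its chemistry. NDUFV1, which binds NADH and the flavin that takes its electrons, read 12.38, 12.25 and 12.12 in SAHA cells, against 11.81, 11.75 and 11.60 in DMSO cells, and rose by 0.53 ± 0.09 (log2, SE; limma adjusted p = 0.00103). NDUFV2, an iron-sulphur core subunit beside it, rose by 0.38 ± 0.06, and NDUFS7, an iron-sulphur core subunit next to the quinone site, by 0.22 ± 0.07. NDUFS1, the largest iron-sulphur subunit, changed by -0.14 ± 0.07 and did not pass. The 5 core subunits among the members thus comprised 3 that rose, 1 that fell and 1 that did not pass with SAHA. With both drugs NDUFV1 and NDUFS7 rose, NDUFS3 and NDUFS1 (-0.37) fell, and NDUFV2 did not pass (0.02). NDUFS8, a further core subunit, was read only by probe sets listed for several genes. With SAHA the dimmer of them fell (-0.20) and the brighter did not pass (-0.10).

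The largest rises of complex I were in accessory subunits. NDUFA2 read 13.39, 13.37 and 13.23 in SAHA cells, against 12.60, 12.51 and 12.50 in DMSO cells, a change of 0.79 ± 0.08 (1.73-fold; limma adjusted p = 2.60e-05). NDUFA8 read 11.93, 11.85 and 11.66 in SAHA cells, against 11.09, 11.10 and 10.97 in DMSO cells, a change of 0.76 ± 0.08. NDUFB3 read 12.51, 12.73 and 12.51 in SAHA cells, against 11.99, 12.05 and 11.87 in DMSO cells, a change of 0.61 ± 0.07. No SAHA array of these genes overlapped a DMSO array. NDUFB6 (0.45) and NDUFA3 (0.55) also rose.

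**Figure D2:**
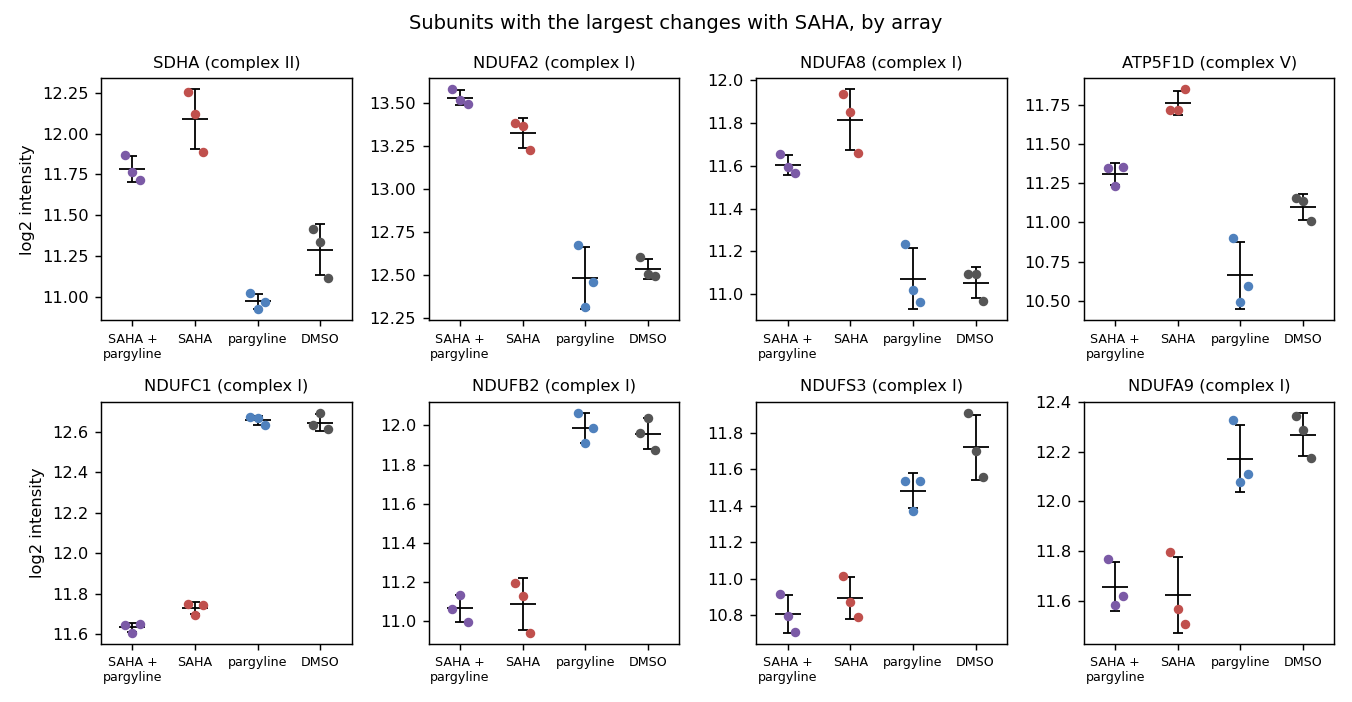
Log2 intensity of 8 members on each of the 12 arrays, in the order SAHA plus pargyline, SAHA, pargyline and DMSO, with bars for the mean ± SD of 3 arrays. SDHA, NDUFA2, NDUFA8 and ATP5F1D were higher with SAHA than with DMSO, and NDUFC1, NDUFB2, NDUFS3 and NDUFA9 lower.

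In complex II, SDHA, the flavoprotein that oxidises succinate, had the largest rise of all members with SAHA. It read 12.25, 12.12 and 11.89 in SAHA cells, against 11.42, 11.34 and 11.12 in DMSO cells, a change of 0.80 ± 0.10 (log2, SE; 1.74-fold; limma adjusted p = 8.44e-05). The groups did not overlap. The membrane anchors SDHC (-0.22 ± 0.09) and SDHD (0.01 ± 0.08) did not pass. In complex III, CYC1, the cytochrome c1 that hands electrons to cytochrome c, read 12.04, 11.86 and 11.87 in SAHA cells, against 12.55, 12.57 and 12.42 in DMSO cells. It fell by 0.59 ± 0.07 on the log2 scale (limma adjusted p = 4.86e-05), while the core protein UQCRC1 rose by 0.35 and the small subunits UQCR11 and UQCR10 by 0.23 and 0.11. All 3 of those rises were lost when arrays were centred on their medians, where none of the 7 complex III members rose and 2 fell.

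Complex IV, cytochrome c oxidase, had rises and no fall with SAHA: 7 of 13 members rose (53.8%), 6 of them also after centring, and the median change was 0.14. COX6C read 14.23, 14.35 and 14.18 in SAHA cells, against 13.63, 13.75 and 13.60 in DMSO cells, a change of 0.59 ± 0.07 (limma adjusted p = 6.11e-05). COX7A2L, a COX7A-related protein that joins complexes III and IV into supercomplexes, read 13.11, 13.14 and 13.00 in SAHA cells, against 12.66, 12.64 and 12.47 in DMSO cells, a change of 0.49 ± 0.07. COX6A1, the isoform of most tissues, read 14.56, 14.60 and 14.58 in SAHA cells, against 14.12, 14.09 and 14.13 in DMSO cells, a change of 0.46 ± 0.04. In each of the 3 genes every SAHA array lay above every DMSO array. COX5B (0.31), COX7A2 (0.25), COX7B (0.23) and COX5A (0.14), all nuclear subunits around the catalytic core, rose by less. COX4I1, the subunit through which ATP inhibits the enzyme, read 13.88, 13.74 and 13.74 in SAHA cells, against 13.79, 13.76 and 13.68 in DMSO cells, and did not pass (0.05 ± 0.07). COX6B1 (0.05 ± 0.08), COX7C (0.06 ± 0.03) and COX8A (-0.02 ± 0.05) did not pass either.

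Complex V, the ATP synthase, was divided too, with 5 rises and 4 falls with SAHA among 17 members. ATP5F1D, the delta subunit of the central stalk, read 11.71, 11.71 and 11.85 in SAHA cells, against 11.15, 11.13 and 11.01 in DMSO cells, a change of 0.66 ± 0.10 (limma adjusted p = 2.58e-04). The membrane subunit ATP5MJ rose by 0.51 ± 0.04 and the peripheral stalk subunit ATP5PD by 0.38 ± 0.04. Another peripheral stalk subunit, ATP5PB, fell by 0.24 ± 0.04 on the log2 scale. The catalytic ring subunits ATP5F1A (0.02 ± 0.04) and ATP5F1B (0.10 ± 0.05) did not pass. ATP5IF1, the inhibitor protein that blocks ATP hydrolysis by the enzyme, read 9.83, 9.53 and 9.49 in SAHA cells, against 9.69, 9.51 and 9.53 in DMSO cells, which overlap, and did not pass (0.04 ± 0.11).

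The c-ring of complex V, which turns as protons pass, is built from a protein that ATP5MC1, ATP5MC2 and ATP5MC3 encode in identical mature form. Their transcripts did not move together. ATP5MC1 read 10.79, 10.69 and 10.61 in SAHA cells, against 11.34, 11.28 and 11.02 in DMSO cells, a change of -0.51 ± 0.08 (log2, SE; limma adjusted p = 4.48e-04). ATP5MC2 read 12.53, 12.50 and 12.59 in SAHA cells, against 13.12, 13.14 and 13.06 in DMSO cells, a change of -0.57 ± 0.05 (limma adjusted p = 8.54e-06). ATP5MC3 read 14.78, 14.79 and 14.73 in SAHA cells, against 14.64, 14.59 and 14.53 in DMSO cells, a rise of 0.18 ± 0.04 (limma adjusted p = 0.00533). The SAHA and DMSO arrays did not overlap for any of the 3 genes, and ATP5MC1 and ATP5MC2 were lower with SAHA where ATP5MC3 was higher.

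**Figure D3:**
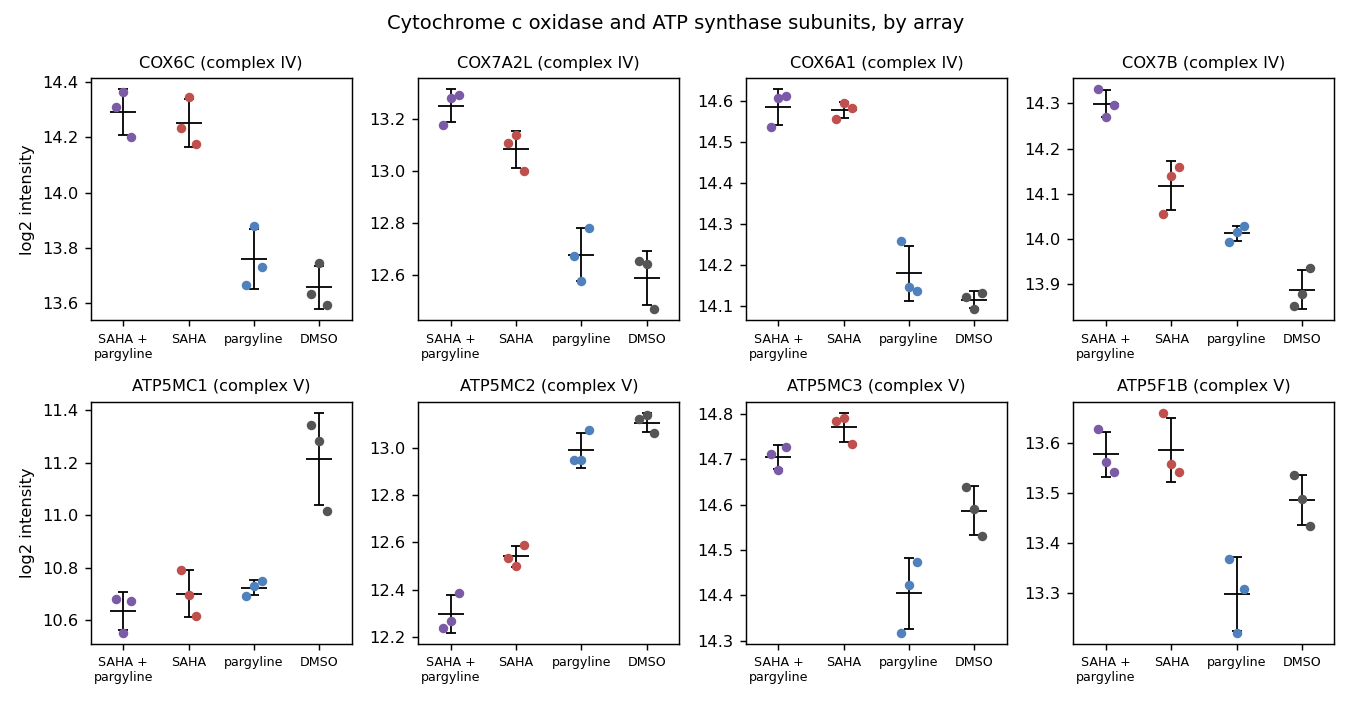
Log2 intensity of 4 members of complex IV and 4 of complex V on each of the 12 arrays, in the order SAHA plus pargyline, SAHA, pargyline and DMSO, with bars for the mean ± SD of 3 arrays. COX6C, COX7A2L and COX6A1 were high in the SAHA-treated groups and lower in the pargyline and DMSO groups, while ATP5MC1 was low in all 3 drug groups.

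The promoters of 59 members, taken from RefSeq sequences of build GRCh38.p14 (250 bases before to 50 after the start), were searched on both strands for motifs of known regulators. The motifs were GCGCA and GCGC with any base between them for NRF1, CCGGAAGT for GABPA, AANATGGCG for YY1 and TCAAGGTCA for ESRRA. NRF1 matches stood in 13 of 59 member promoters (22.0%), where 6.28% of all 27305 promoters and 9.48% of those of genes on the array held one. YY1 matches also stood in 13 (22.0%), against 3.37% of all promoters and 5.88% of those of genes on the array. GABPA matches stood in 8 (13.6%), against 4.44% and 6.59%, and an ESRRA match in 1 (1.69%), against 0.359% and 0.199%. With SAHA, NRF1 matches stood in 8 of 22 promoters of members that rose, 3 of 17 of those that fell and 2 of 20 of those that did not pass. YY1 matches stood in 9 of 28 complex I promoters. These are matches of letters and not sites of binding. The 4 promoters shown are of 2 members with large rises and 2 with large falls with SAHA, and were picked for having a match, in capitals. Other members with large changes held no match to any of the motifs, among them NDUFC1 and NDUFB2, which fell, and NDUFA2 and NDUFB3, which rose. SDHA lies at chr5:218070-218369 (plus strand) and holds 4 NRF1 matches 49 bases apart, whose first bases stand at -166, -117, -68 and -19 from the start. NDUFA8 lies at chr9:122159730-122160029 (minus strand), with 2 overlapping NRF1 matches at -4 and 3. NDUFA9 lies at chr12:4648864-4649163 (plus strand), with an NRF1 match at -80 and a YY1 match at 11. NDUFS3 lies at chr11:47578824-47579123 (plus strand), with a YY1 match at 16.
SDHA promoter: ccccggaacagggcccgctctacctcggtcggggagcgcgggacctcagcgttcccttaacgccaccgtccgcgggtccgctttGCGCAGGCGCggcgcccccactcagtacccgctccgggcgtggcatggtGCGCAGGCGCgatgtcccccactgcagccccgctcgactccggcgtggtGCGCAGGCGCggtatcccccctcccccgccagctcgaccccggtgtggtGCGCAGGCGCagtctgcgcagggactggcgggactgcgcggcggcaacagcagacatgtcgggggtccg
NDUFA8 promoter: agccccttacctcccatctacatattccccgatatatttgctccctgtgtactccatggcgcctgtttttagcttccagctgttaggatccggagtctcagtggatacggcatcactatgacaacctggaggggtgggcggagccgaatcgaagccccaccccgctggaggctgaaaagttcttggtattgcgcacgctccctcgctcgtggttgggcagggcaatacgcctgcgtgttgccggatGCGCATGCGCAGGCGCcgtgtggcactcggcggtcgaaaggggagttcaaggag
NDUFA9 promoter: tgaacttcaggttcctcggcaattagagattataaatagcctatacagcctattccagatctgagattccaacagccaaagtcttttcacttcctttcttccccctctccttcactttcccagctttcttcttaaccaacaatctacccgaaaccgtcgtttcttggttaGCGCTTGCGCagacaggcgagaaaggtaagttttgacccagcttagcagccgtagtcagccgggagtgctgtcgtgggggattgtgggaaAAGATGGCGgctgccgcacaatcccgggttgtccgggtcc
NDUFS3 promoter: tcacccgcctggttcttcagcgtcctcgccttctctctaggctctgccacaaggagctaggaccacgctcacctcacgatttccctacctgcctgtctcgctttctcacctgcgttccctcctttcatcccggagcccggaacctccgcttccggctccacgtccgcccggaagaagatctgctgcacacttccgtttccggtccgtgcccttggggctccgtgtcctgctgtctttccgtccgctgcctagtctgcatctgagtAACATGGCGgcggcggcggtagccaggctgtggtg

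With pargyline, on the deposited scale, the subunits passed as often as all genes did. The median size of change, without its sign, was 0.08 for members and 0.08 for all genes (log2). Against DMSO, 1 of 69 members rose and 10 fell (1.45% and 14.5%), where 8.48% of all genes rose and 7.45% fell. Either way, 15.9% of members passed, against 15.9% of all genes and 26.5% of those at or above the median level. The median change over members was -0.06, against -0.02 for all genes, and no member reached 2-fold, which 2.28% of all genes did. The fall count depended on the arrays and the scale: it was 3 without DMSO replicate 1 or without DMSO replicate 2, 5 without pargyline replicate 3, 17 with array weights and 38 with arrays centred on their medians, where 51.6% of all genes fell. By that centring the calls over all genes split 12.4% higher to 87.6% lower, against 53.2% to 46.8% on the deposited scale.

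Of the 10 falls with pargyline, 7 were in complex V, 2 in complex III and 1 in complex I. ATP5MC1 read 10.69, 10.73 and 10.75 in pargyline cells, against 11.34, 11.28 and 11.02 in DMSO cells, a change of -0.49 ± 0.08 (limma adjusted p = 0.00367). ATP5F1D read 10.90, 10.49 and 10.59 in pargyline cells, against 11.15, 11.13 and 11.01 in DMSO cells, a change of -0.44 ± 0.10 (limma adjusted p = 0.0146). ATP5F1B, the catalytic beta subunit, read 13.37, 13.22 and 13.31 in pargyline cells, against 13.53, 13.49 and 13.43 in DMSO cells, a change of -0.19 ± 0.05 (limma adjusted p = 0.0278). The groups did not overlap in these genes. ATP5MC3 read 14.32, 14.42 and 14.47 in pargyline cells, against 14.64, 14.59 and 14.53 in DMSO cells, a change of -0.18 ± 0.04 (limma adjusted p = 0.0194). The others of complex V were ATP5F1C, the gamma subunit of the central stalk (-0.18), ATP5PB (-0.16) and ATP5PO, a peripheral stalk subunit (-0.15).

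Outside complex V, CYC1 read 12.36, 12.13 and 12.24 in pargyline cells, against 12.55, 12.57 and 12.42 in DMSO cells, a change of -0.27 ± 0.07 (limma adjusted p = 0.0233). NDUFB1, an accessory subunit of the membrane arm of complex I, read 12.72, 12.75 and 12.82 in pargyline cells, against 13.00, 12.94 and 12.98 in DMSO cells, a change of -0.21 ± 0.04 (limma adjusted p = 0.00509). UQCR10 fell by 0.17 on the log2 scale. Every pargyline array of these genes lay below every DMSO array. The single rise was COX7B, which read 13.99, 14.02 and 14.03 in pargyline cells, against 13.85, 13.88 and 13.93 in DMSO cells (0.12 ± 0.03, limma adjusted p = 0.0370). It was -0.01 and did not pass when arrays were centred. The calls of ATP5F1B, ATP5F1C, ATP5F1D, ATP5MC3, ATP5PB, CYC1, UQCR10 and COX7B were each lost when DMSO replicate 1 was left out (adjusted p between 0.0564 for ATP5F1D and 0.138 for COX7B), and also without DMSO replicate 2. Those of ATP5MC1, NDUFB1 and ATP5PO passed in every fit that left out 1 array.

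With both drugs, 21 members rose and 23 fell against DMSO (30.4% and 33.3%), where 24.3% of all genes rose and 24.0% fell. Either way, 63.8% of the members passed, against 48.3% of all genes and 75.6% of those at or above the median level. The median change over members was 0.02, against -0.01 for all genes. With arrays centred, 13 members rose and 36 fell, and 75.0% of the calls over all genes were falls, against 49.7% on the deposited scale. The comparisons with DMSO share their DMSO arrays, so the values of each are given side by side.

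On the probe sets used, NDUFC1 was the only member past 2-fold, which 20.5% of all genes passed. It read 11.65, 11.61 and 11.65 with both drugs, against 12.63, 12.69 and 12.61 with DMSO, a change of -1.01 ± 0.03 (0.496-fold; limma adjusted p = 9.47e-09). NDUFS3 read 10.91, 10.79 and 10.71 with both drugs, against 11.91, 11.70 and 11.56 with DMSO, a change of -0.92 ± 0.10. NDUFB2 averaged 11.07 ± 0.07 with both drugs, against 11.96 ± 0.08 with DMSO (SD, n = 3 each), a change of -0.89 ± 0.07. The combination arrays of these genes lay below all DMSO arrays. NDUFS6 averaged 12.01 ± 0.03 with both drugs, against 12.76 ± 0.11 with DMSO (SD, n = 3 each), a change of -0.75 ± 0.07. In complex I as a whole 15 members fell and 9 rose with both drugs.

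NDUFA2 had the largest rise with both drugs. It read 13.58, 13.52 and 13.50, against 12.60, 12.51 and 12.50 with DMSO, a change of 1.00 ± 0.08 (1.99-fold; limma adjusted p = 4.62e-06). NDUFB6, an accessory subunit of the membrane arm, read 13.81, 13.70 and 13.72 with both drugs, against 13.21, 13.20 and 13.14 with DMSO, a change of 0.56 ± 0.04. These combination arrays all lay above the DMSO arrays. NDUFA8 read 11.65, 11.59 and 11.56 with both drugs, against 11.09, 11.10 and 10.97 with DMSO, a change of 0.55 ± 0.08. SDHA read 11.87, 11.76 and 11.72 with both drugs, against 11.42, 11.34 and 11.12 with DMSO, a change of 0.49 ± 0.10 (limma adjusted p = 0.00190). Neither gene overlapped between the groups. SDHC fell by 0.31 ± 0.09 on the log2 scale with both drugs.

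In complex IV 7 of 13 members again rose and none fell with both drugs, although with arrays centred 5 rose and 5 fell. COX7A2L read 13.18, 13.28 and 13.30 with both drugs, against 12.66, 12.64 and 12.47 with DMSO, a change of 0.66 ± 0.07 (limma adjusted p = 2.00e-05). COX6C read 14.31, 14.36 and 14.20 with both drugs, against 13.63, 13.75 and 13.60 with DMSO, a change of 0.63 ± 0.07. COX7B read 14.33, 14.27 and 14.30 with both drugs, against 13.85, 13.88 and 13.93 with DMSO, a change of 0.41 ± 0.03. The arrays of the 2 conditions did not overlap. In complex V, ATP5MC2 read 12.24, 12.27 and 12.39 with both drugs, against 13.12, 13.14 and 13.06 with DMSO, a change of -0.81 ± 0.05 (limma adjusted p = 6.73e-07). ATP5MC1 changed by -0.58 ± 0.08 and ATP5MC3 by 0.12 ± 0.04, and both passed. The pseudogene ATP5MC2P1 read 3.29, 3.16 and 3.41 with both drugs, against 3.90, 4.04 and 4.24 with DMSO, a change of -0.77 ± 0.14. Its dim probe set may share sequence with its parent gene, so whether the value is its own is uncertain.

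**Figure D4:**
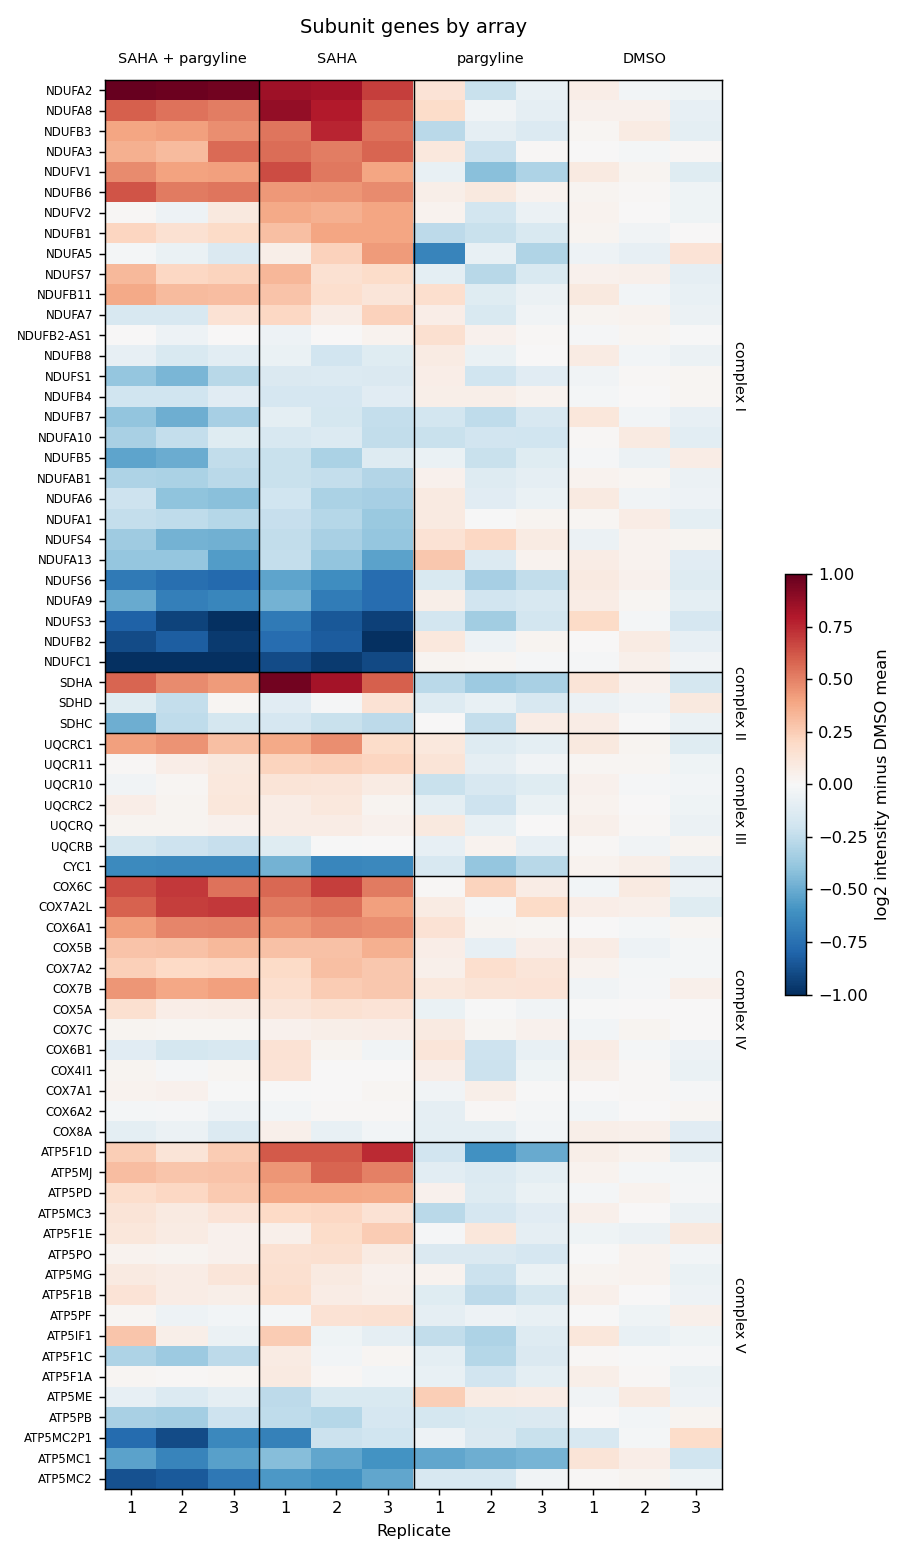
Log2 intensity of every member minus its DMSO mean, by array in the order SAHA plus pargyline, SAHA, pargyline and DMSO, with members ordered by complex. In both SAHA-treated groups complex I runs both ways, with NDUFC1, NDUFB2 and NDUFS3 lowest and NDUFA2 highest among its members, while the pargyline arrays differ less from DMSO.

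Some subunits were lower with both drugs than with SAHA alone. Against SAHA alone, 11 members fell and 1 rose with both drugs (15.9% and 1.45%), where 8.71% of all genes fell and 7.88% rose (16.6% either way). Of the falls, 6 were in complex V, 4 in complex I and 1 in complex III. NDUFB1, NDUFV2, ATP5F1D, ATP5MJ, ATP5PD and ATP5PO had risen with SAHA against DMSO, NDUFB7 and ATP5MC2 had fallen, and NDUFS1, UQCRB and ATP5F1C had not passed. Among all 69 members, 25 rose with SAHA. The 2 comparisons use the same SAHA arrays with opposite sign, which favours such a pairing, and nothing is read from it. The fall count was 6 without SAHA replicate 2, 6 without combination replicate 1 and 4 without combination replicate 2. ATP5F1D read 11.35, 11.23 and 11.35 with both drugs, against 11.71, 11.71 and 11.85 with SAHA, a change of -0.45 ± 0.10 (limma adjusted p = 0.0122, and 0.0512 without combination replicate 2). NDUFV2 read 12.28, 12.21 and 12.36 with both drugs, against 12.64, 12.62 and 12.66 with SAHA, a change of -0.36 ± 0.06 (limma adjusted p = 0.00291). ATP5F1C read 13.46, 13.41 and 13.51 with both drugs, against 13.86, 13.75 and 13.79 with SAHA, a change of -0.34 ± 0.05. The arrays did not overlap, and the other bright probe sets of ATP5F1C also passed (-0.37 and -0.38, adjusted p = 0.00124 and 0.00577). The mean over all its probe sets, which includes a dim one with a level of 3.38 and a change of 0.58, gave -0.13 and did not pass (adjusted p = 0.390). COX7B rose by 0.18 ± 0.03 (limma adjusted p = 0.00676), and this call was lost with arrays centred (0.13, adjusted p = 0.0638).

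Against pargyline alone, both drugs gave 28 rises and 20 falls (40.6% and 29.0%), where 23.9% of all genes rose and 23.6% fell (47.5% either way). NDUFA2 read 13.58, 13.52 and 13.50 with both drugs, against 12.67, 12.31 and 12.46 with pargyline, a change of 1.05 ± 0.08 (limma adjusted p = 4.14e-06). NDUFC1 read 11.65, 11.61 and 11.65 with both drugs, against 12.67, 12.67 and 12.63 with pargyline, a change of -1.03 ± 0.03. On the probe sets used, these were the 2 members past 2-fold in that comparison, where 18.1% of all genes passed it. SDHA (0.81) and NDUFV1 (0.69) also rose, and NDUFB2 (-0.92) and ATP5MC2 (-0.69) fell. ATP5IF1 read 9.86, 9.63 and 9.52 with both drugs, against 9.33, 9.27 and 9.45 with pargyline, a change of 0.32 ± 0.11 (limma adjusted p = 0.0359). Its arrays did not overlap, but the call was lost without combination replicate 1 (adjusted p = 0.132) and in 3 other fits that left out 1 pargyline or combination array.

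SAHA and pargyline were also set against each other. Here 32 members were higher with SAHA and 14 lower (46.4% and 20.3%), where 23.4% of all genes were higher and 22.7% lower (46.2% either way). On the probe sets used, differences of 2-fold or more were found in 2 members, SDHA and ATP5F1D, and in 17.3% of all genes. SDHA read 12.25, 12.12 and 11.89 with SAHA, against 11.02, 10.93 and 10.97 with pargyline, a difference of 1.11 ± 0.10 (2.16-fold; limma adjusted p = 9.49e-06). ATP5F1D read 11.71, 11.71 and 11.85 with SAHA, against 10.90, 10.49 and 10.59 with pargyline, a difference of 1.10 ± 0.10 (2.14-fold; limma adjusted p = 8.92e-06). ATP5F1D was among 5 members (7.25%, against 1.66% of all genes) that rose with SAHA and fell with pargyline against DMSO. Both comparisons use the same DMSO arrays, and nothing is read from that share. Its changes were 0.66 with SAHA and -0.44 with pargyline, and with both drugs it stood at 0.21 ± 0.10 and did not pass. The others were NDUFB1 (0.36 with SAHA and -0.21 with pargyline), ATP5MC3 (0.18 and -0.18), ATP5PO (0.13 and -0.15) and UQCR10 (0.11 and -0.17), and each of the 5 passed in the direct comparison of SAHA with pargyline. In complex V 10 of 17 members were higher with SAHA than with pargyline and 2 lower, and in complex IV 7 of 13 were higher and none lower.

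Whether the 2 drugs together differed from the sum of their separate changes was tested with the interaction (both minus SAHA minus pargyline plus DMSO, log2). By limma 0 of 69 members passed at the adjusted threshold and 10 (14.5%) had an unadjusted p under 0.05, against 17.2% of all genes, while 3.72% of all genes passed (1.28% above and 2.44% below 0). The members nearest to passing were ATP5MC1 (0.42 ± 0.12) and NDUFV2 (-0.29 ± 0.08), each at an adjusted p of 0.0843. For ATP5MC1, the separate changes were -0.51 with SAHA and -0.49 with pargyline and the joint change was -0.58. With array weights both passed (adjusted p = 0.0412 for ATP5MC1 and 0.0126 for NDUFV2). ATP5MC1 also passed without DMSO replicate 3 (adjusted p = 0.0116), and NDUFV2 without pargyline replicate 2 (0.0294) or combination replicate 3 (0.0484).

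Of the 69 members, 21 had several probe sets, which gave 33 further ones. Those above the median level whose gene had passed ran the same way in 9 of 9 cases with SAHA, 5 of 5 with pargyline and 12 of 13 with both drugs. This counts direction alone. With pargyline, those of ATP5F1D, ATP5MC3 and ATP5PO did not pass (limma adjusted p = 0.103, 0.0685 and 0.867), and ATP5F1C had 1 on each side (0.0203 and 0.126). A further probe set each of ATP5MJ, UQCRB and ATP5MG passed (-0.43, -0.38 and -0.25), although these genes were not called. Other bright ones of UQCRB and ATP5MG did not pass. With SAHA, a bright further probe set each of ATP5MG, UQCRC2 and UQCRB passed (0.54, 0.17 and -0.25), although these genes were not called with SAHA. With both drugs a bright further probe set of COX7C passed (0.07), although COX7C was not called. Sizes differed: NDUFA6, an accessory subunit of complex I, changed by -0.28 with SAHA on its brighter probe set and by -1.35 on its other one. NDUFB2 changed by -0.87 and -1.12. With both drugs those other probe sets changed by -1.68 and -1.02, so the statements on 2-fold changes hold only for the probe sets used. Of the probe sets used, 30 carry the suffix that marks probes shared by transcripts of a gene or family and 7 the one that marks probes that may cross-hybridise, SDHA, SDHC, ATP5F1C and COX4I1 among the 7.

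Genes around the respiratory chain were read from lists of its assembly factors, electron carriers, regulators and fuel pathways. The assembly factors, of which 28 of 52 listed were measured, had 10 rises and 14 falls with SAHA (85.7% passed), 2 and 4 with pargyline (21.4%), and 7 and 12 with both drugs (67.9%). For all genes the shares that passed were 46.2% in the SAHA comparison, 15.9% in that of pargyline and 48.3% in that of the combination. NDUFAF1, needed to build complex I, averaged 12.04 ± 0.23 with both drugs, 11.39 ± 0.19 with SAHA, 10.34 ± 0.13 with pargyline and 10.20 ± 0.13 with DMSO (SD, n = 3 each), and rose with both drugs and with SAHA. SCO2, which carries copper to complex IV, averaged 8.13 ± 0.08 with both drugs, 8.16 ± 0.15 with SAHA, 9.46 ± 0.18 with pargyline and 9.77 ± 0.18 with DMSO, and fell in both SAHA-treated groups. TACO1, which activates translation of a mitochondrially encoded complex IV subunit, changed by -1.76 with both drugs, -1.29 with SAHA and -0.40 with pargyline, each past the threshold. COX20, another complex IV factor, changed by -1.51 with both drugs and -1.31 with SAHA, and passed in both. SURF1, also a complex IV factor and named here after its values were seen, rose by 0.94 with both drugs and by 1.05 with SAHA.

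Among the regulators of mitochondrial biogenesis, 21 of 22 measured, 7 rose and 9 fell with SAHA (76.2%), 2 rose and 5 fell with pargyline (33.3%), and 8 rose and 11 fell with both drugs (90.5%). PPARGC1A, which encodes PGC-1alpha, averaged 8.17 ± 0.11 with both drugs, 7.29 ± 0.12 with SAHA, 5.66 ± 0.28 with pargyline and 4.54 ± 0.52 with DMSO. Its changes of 3.63, 2.75 and 1.12 all passed. NRF1 averaged 6.95 ± 0.13 with both drugs, 7.12 ± 0.12 with SAHA, 7.99 ± 0.17 with pargyline and 8.57 ± 0.18 with DMSO, and fell in all 3 drug groups. GABPB1, a subunit of GABP, changed by -1.75, -1.51 and -0.72 in the same groups, and PPRC1, a PGC-1 related coactivator, by -2.08 and -2.10 in the first 2. PPARGC1A thus rose in the groups in which NRF1 and GABPB1 fell. Of the other factors whose motifs were searched, and named for that reason, GABPA, the DNA-binding subunit of GABP, rose by 0.50 with both drugs and did not pass with SAHA (0.12). ESRRA rose by 0.54 and 0.26 with both drugs and with SAHA, and YY1 fell by 0.52 and 0.39 on the log2 scale.

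**Figure D5:**
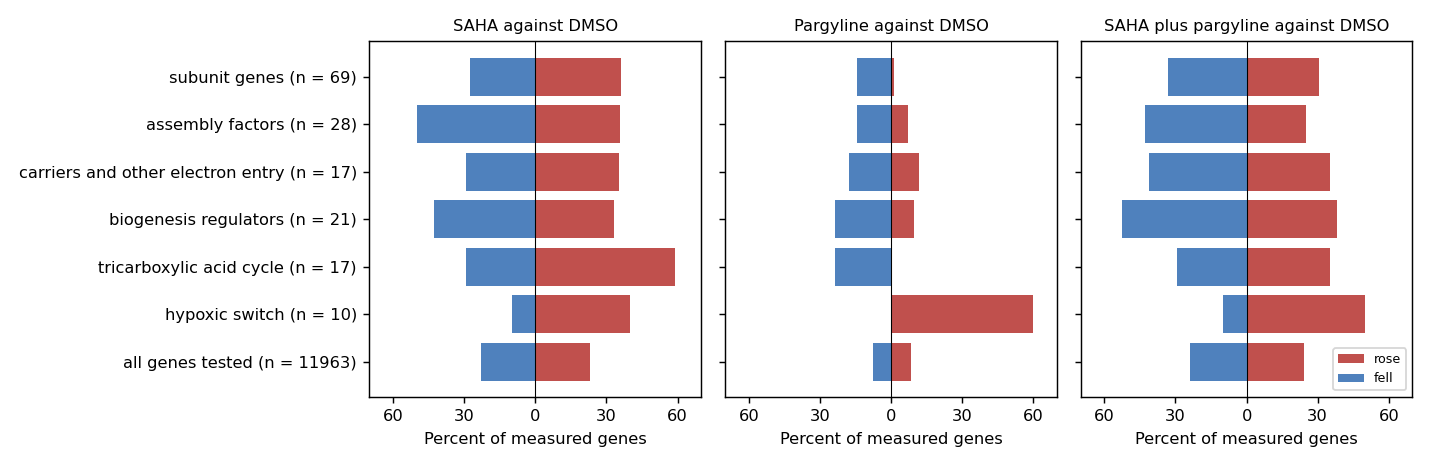
Percent of the measured genes on each pathway list that rose or fell with SAHA, pargyline and SAHA plus pargyline against DMSO. Bars to the right of 0 are rises and bars to the left falls, with the subunit genes and all genes tested shown beside the lists. With SAHA, 36.2% of the subunit genes rose and 27.5% fell, against 23.0% and 23.1% of all genes.

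Of the carriers and other points of electron entry (17 of 20 measured), 6 rose and 5 fell with SAHA (64.7%), 2 and 3 with pargyline (29.4%), and 6 and 7 with both drugs (76.5%). ETFDH, which feeds electrons from fatty acid oxidation to the quinone pool, averaged 9.68 ± 0.09 with both drugs, 9.41 ± 0.06 with SAHA, 7.22 ± 0.07 with pargyline and 6.44 ± 0.37 with DMSO, and rose in all 3. GPD2, which feeds in electrons from glycerol phosphate, fell by 1.42 with both drugs and by 1.51 with SAHA on the log2 scale. UCP2, an inner membrane carrier, changed by 0.37, 1.09 and -1.02 with both drugs, SAHA and pargyline, each past the threshold. The tricarboxylic acid cycle list (17 of 19) had 10 rises and 5 falls with SAHA (88.2%), 0 and 4 with pargyline (23.5%), and 6 and 5 with both drugs (64.7%), with PC, which makes oxaloacetate from pyruvate, at 2.36 with both drugs and 1.78 with SAHA. The list of genes of the hypoxic switch away from respiration (10 of 12) had 4 rises and 1 fall with SAHA (5 of 10 passed), 6 and 0 with pargyline (6 of 10), and 5 and 1 with both drugs (6 of 10), to be read against the same shares of all genes. PDK1, which inhibits entry of pyruvate into the cycle, averaged 8.75 ± 0.17 with pargyline and 7.04 ± 0.29 with DMSO, a rise of 1.71 (limma adjusted p = 0.00183), and did not pass with SAHA (-0.32) or both drugs (0.55).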

How the data were processed

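Total RNA of 12 cultures was labelled with biotin and hybridised to HG-U133A_2 arrays. The authors deposited log2 intensity values for 22277 probe sets, made with RMA per the submitters' processing notes; the version and settings are not given in the sources used here. Whether the 12 arrays were normalized together is not stated. RMA as published corrects background, quantile-normalizes and summarises probes, which tends to compress fold changes, and a shift common to most genes would not show. From these values, 19064 probe sets with 1 gene gave 11963 genes, the brightest probe set standing for each; 1043 probe sets with several genes and 62 controls were left out. Differences between the 4 labelled groups were fitted on all 12 arrays with limma 3.58.1 in R 4.3.3 (lmFit and eBayes, 8 residual degrees of freedom), adjusted by Benjamini-Hochberg over all genes. The fit was tested on simulated data in which 100 of 11963 genes, drawn from all genes, changed at each size. With SAHA it recovered 87% of 2-fold and 67% of 1.41-fold changes. In the data 46.2% of all genes passed with SAHA, so these shares do not give the recovery for the members. The number of arrays limits the precision.

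The members and lists were chosen with earlier results of these data known. Genes given with values on every array were the largest rises and falls that passed in each comparison and the isoform genes. Against DMSO, only members whose arrays did not overlap between the groups were eligible for the largest changes. All members that passed met this (25 rises and 19 falls with SAHA, 1 and 10 with pargyline, 21 and 23 with both drugs). The share of all genes without overlap was not counted, so nothing about the subunits is read from these counts. Up to 4 genes a list were named by largest change. The core subunits of complex I and the other members given by their change alone were picked for their role. Alternatives were quantile normalization, centring, no dim genes (under 2.79), the mean over probe sets, a replicate block, a trended robust prior, array weights, the compared groups alone, a threshold of 0.01 and leaving out each array; counts for complexes I and IV under these were chosen after seeing the data. No protein sequences were used here.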

Additional observations from a re-analysis of the deposited data

Results flagged for a closer look

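Probe sets assigned to several genes took no part in the comparisons, and 2 of them that name subunits rose with SAHA and with both drugs. The probe set listed for UQCRH, the hinge protein of complex III, and the related UQCRHL, changed by 0.22 with both drugs (0.2229) and 0.20 with SAHA (0.1969) against DMSO (limma adjusted p = 4.85e-04 and 0.00121). It read 14.13, 14.14 and 14.13 with both drugs and 14.11, 14.10 and 14.11 with SAHA, against 13.92, 13.91 and 13.90 with DMSO. The probe set listed for NDUFC2, a membrane-arm subunit of complex I, and the read-through NDUFC2-KCTD14, changed by 0.1638 with both drugs and 0.3988 with SAHA (limma adjusted p = 0.0333 and 1.86e-04), and by -0.25 with pargyline (limma adjusted p = 0.0151). It read 13.19, 13.11 and 13.10 with both drugs, 13.38, 13.39 and 13.33 with SAHA and 12.85, 12.61 and 12.70 with pargyline, against 12.99, 12.98 and 12.93 with DMSO. No drug-treated array of these contrasts overlapped DMSO. Which of the named genes the signal belongs to cannot be told apart. Of the other 4 such probe sets, the one listed for NDUFS5 and RPL10 changed by -0.29 with both drugs and -0.28 with SAHA, and the one for ATP5MF and ARMC2-AS1 by -0.37 and -0.25. The brighter of the 2 listed for NDUFS8 and microRNA genes changed by -0.12 and -0.10 and did not pass, and the dimmer by -0.21 and -0.20, which passed.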

How the results depend on the processing

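Of 251 counts and medians under settings other than leaving out an array, 220 stayed within 1.5 times the reported count or within the replicate spread, as did 331 of 348 with 1 array left out. With arrays centred on their medians, the median member change was -0.0465 with SAHA, -0.1873 with pargyline, -0.1393 with both drugs and 0.0723 for the interaction. The same centring gave 0 rises and 38 falls with pargyline, 13 rises and 36 falls with both drugs, 0 rises for both drugs against SAHA, and 5 complex IV falls with both drugs; COX7B with pargyline turned to -0.0055. For pargyline against DMSO, quantile normalization gave 2 rises, leaving out dim genes 0 rises and 6 falls, the trended prior 0 rises, array weights 2 rises and 17 falls, the compared groups alone 0 rises and 5 falls, and a threshold of 0.01 gave 0 rises and 3 falls. For both drugs against SAHA, quantile normalization gave 2 rises, array weights 3 rises and 20 falls, and a threshold of 0.01 gave 3 falls. Array weights gave 1 rise and 1 fall for the interaction and 2 complex IV falls with both drugs, the compared groups alone gave 1 such fall, and a threshold of 0.01 left 9 complex I falls with SAHA. The cause of these moves was not tested.

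With the replicate number as a block, pargyline gave 16 falls and complex IV 1 fall with both drugs. The labels state no pairing. Arrays of the same number deviated together by correlations of 0.0807 to 0.5345, those of different numbers by -0.5231 to 0.2519, and 11 of 12 arrays were closest to their own number, as a hint from the data and not the design. Deviations were taken from the group means and cancel within a group, so these ranges are not independent of each other.

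With 1 array left out, pargyline gave 0 to 1 rises and 3 to 13 falls, both drugs against SAHA 1 to 2 rises and 4 to 12 falls, the interaction 0 to 1 rises and 0 to 1 falls, and complex IV 0 to 1 falls with both drugs. SAHA against DMSO gave 24 to 26 rises and 15 to 19 falls, and both drugs against DMSO 19 to 22 and 22 to 24. Of 624 values for single members 599 kept their direction and side of the threshold and 25 lost the call; under the other settings 447 of 469 kept it and 21 lost it. The interaction could not be fitted with the compared groups alone. Groups of 3 arrays limit what small changes can be told apart. In simulated data with 100 of 11963 genes changed at each size, the interaction recovered 74% of 2-fold and 48% of 1.41-fold changes.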
